A study of Mus musculus with 2 samples.

Results

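The 54 genes described here encode lysosomal hydrolases and membrane proteins, subunits of the vacuolar proton pump (V-ATPase), the TFEB family of transcription factors and proteins of autophagy. They were chosen by gene symbol, and all 54 were present among the 23282 gene rows counted in the libraries. The lysosome is the acidic compartment in which proteins, lipids and sugar chains are taken apart by hydrolases, and the V-ATPase pumps the protons that keep it acidic. Autophagy encloses cytoplasm in a double membrane that carries lipid-linked ATG8 proteins and then fuses with the lysosome. TFEB and its relatives are transcription factors held in the cytoplasm by the nutrient-sensing kinase mTORC1, and they bind a short DNA site near the start of many lysosomal and autophagy genes. In T cells these pathways are known for turning over organelles and supplying metabolites during activation and differentiation.

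To identify genes altered by the loss of *Fak* in Th17 cells, a control retrovirus or RV-Cre was used to transduce naïve CD4 T cells from spleens of young adult female *Fak* fl/fl mice. RV-Cre carries Cre recombinase and GFP. *Fak*, listed in the tables under its symbol *Ptk2*, encodes focal adhesion kinase, and Cre removes its floxed part. Both cultures received plate-bound anti-CD3ε, soluble anti-CD28, IL-6, TGFβ1, TNFα, IL-1β and antibodies against IFNγ and IL-4 for 3 days, and GFP+ cells were sorted for RNA. GEO's genotype label calls the control WT, but its title gives FAKfl/fl and control RV, and the title was followed. Cre and the loss of *Fak* came together in the RV-Cre library, so their parts cannot be told apart.

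There was 1 library for each condition, with 13799264 counted reads for control and 12305010 for RV-Cre. None of the differences could be set against a spread between replicates, and p-values are therefore not reported. Each ratio is RV-Cre over control after scaling by the TMM method, and its exact Clopper-Pearson 95% interval covers counting error in this pair of libraries only. Log2 ratios were taken after adding 1 to the normalized reads. A gene was called higher or lower when the ratio on that scale was at least 2-fold and the gene reached 15 normalized reads in at least 1 library. *Ptk2* had 110 control reads and 31 RV-Cre reads, a ratio of 0.318 (95% interval 0.206 to 0.477). The kit is named Quant-Seq, a type that reads mainly transcript 3′ ends, but where along *Ptk2* the counted reads lie cannot be seen from a count per gene. The position of the floxed part is not given in the sources used here, so the count does not check the deletion itself. All 8 CD4 T cell markers were present in both libraries, with 22219 control reads and 28291 RV-Cre reads. The ribosomal RNA precursor *Rn45s* took 8.50% of the control reads and 14.6% of the RV-Cre reads. Markers of other cells also differed between the libraries, and their part in the results was not tested. The 20 myeloid markers summed to 59.9 CPM (reads scaled to the library total) in control and 113 CPM in RV-Cre, and *Marco*, a macrophage scavenger receptor, had 5 and 289 reads. The other myeloid markers with the widest differences were *C1qb*, a complement subunit (1 and 65 reads), *Itgax*, an integrin of dendritic cells (27 and 1), and *Ly6c2*, a monocyte antigen also found on T cells (217 and 21). The macrophage marker *Adgre1* had 0 control reads and 8 RV-Cre reads. In bulk RNA, fewer cells of a type and less RNA per cell cannot be told apart.

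The module held both higher and lower genes rather than moving as a block. Of the 54 members, 53 reached the minimum, and *Wipi1* did not. Among these 53, 7 rose at least 2-fold in the RV-Cre library, which is 13.2% of them, against 14.2% of all 12112 genes past the minimum. The 7 were *Atg9a*, *Atg14*, *Cd63*, *Ctss*, *Map1lc3a*, *Mcoln1* and *Gla*. Members that fell at least 2-fold were *Tfeb* and *Ctsc*, which is 3.77% of the 53, against 12.3% of all genes. With this scaling the share of members called higher lay near the background, and the share called lower lay under it. The split of 7 higher and 2 lower became 9 and 1 with library totals without *Rn45s*, 10 and 1 with quantile normalization and 17 and 0 with scaling to *Gapdh*, which moved the median of all genes by 0.44 on the log2 scale. Over all genes the shares higher and lower under these scalings were 16.0% and 10.5%, 12.4% and 13.3%, and 24.3% and 6.40%. *Ctsc* was the lower call lost under the first and second of them, at log2 ratios of -0.94 and -0.92, and both *Ctsc* (-0.62) and *Tfeb* (-0.70) were lost under the third. The scaling gene *Gapdh* had only 956 control reads and 634 RV-Cre reads. At 1.5-fold, 17 members were higher (32.1%, against 23.5% of all genes) and 5 were lower (9.43%, against 22.9%). The counting interval lay above a ratio of 1 for 25 members (47.2%, against 36.7% of all genes) and below 1 for 17 (32.1%, against 38.1%). The median log2 ratio was 0.11 over the members and -0.01 over all genes. Many of the genes called in the whole table have few reads. Among the 51 members that reached a log2 value of 6 in at least 1 library, the same counts of 7 and 2 made 13.7% and 3.92%, beside 7.58% and 11.0% of the 9688 genes past that limit. Summed over the members, 42738 control reads stood against 46851 RV-Cre reads, a ratio of 1.24 (95% interval 1.22 to 1.25). *Npc2* alone held 5120 and 8860 of these reads. The sum is therefore weighted to this gene and is not a measure of a typical member.

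**Figure D1:**
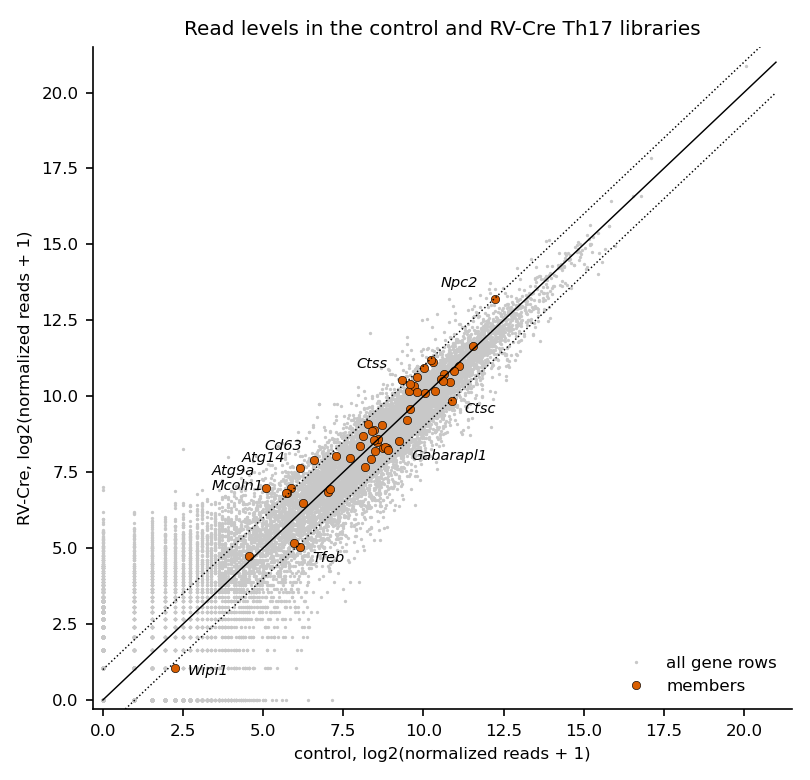
Each point is a gene row, with its log2(normalized reads + 1) in the control library on the x axis and in the RV-Cre library on the y axis, and the 54 members are drawn in orange over all rows in grey. The solid line marks equal values and the dotted lines a 2-fold difference: 44 members lie between the dotted lines, 7 lie above and 2 below among the 53 past the minimum, and *Wipi1* sits at the lower left with 4 and 1 reads.

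Among the TFEB family factors, *Tfeb* fell and its relatives did not. *Tfeb* (GRCm38 chr17:47737030-47792419, plus strand), which encodes the best-known activator of lysosomal genes, had 74 control reads and 30 RV-Cre reads. Its ratio was 0.457 (95% interval 0.289 to 0.708), a log2 ratio of -1.10. *Tfe3*, which encodes a factor with the same DNA site, had 274 and 306 reads, a ratio of 1.26 (1.07 to 1.49). *Mitf*, the family member best known from pigment cells, had 80 and 83 reads, and its interval of 0.851 to 1.61 holds a ratio of 1. *Tfeb* took 17.3% of the reads of this family in the control library (exact 95% interval 13.8 to 21.2%) and 7.16% in the RV-Cre library (4.88 to 10.1%), a comparison that needs no scaling. The summed reads of the family were 428 and 419, with a ratio of 1.10 (0.963 to 1.27).

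The site bound by these factors, the palindrome TCACGTGA with the core CACGTG inside it, was looked for on both strands in the RefSeq promoter windows of GRCm38.p6, from 250 bases before to 50 bases after each annotated start. A promoter was found by symbol for 45 of the 54 members, 55 promoters in all. TCACGTGA stood in 7 of these promoters (12.7%), beside 0.974% of all 32851 promoters and 1.87% of the 11646 promoters of genes past the minimum. CACGTG stood in 13 (23.6%), beside 7.15% and 9.97%. GTAAACA, the core of the site bound by FOXO factors, stood in 0 of the 55 member promoters, beside 3.65% of all promoters and 2.63% of those of genes past the minimum. The shares of the member promoters depend on which genes were chosen and on no read counts, so they say nothing about the libraries. A match describes letters and not binding, and the windows were not read as bound sites. The 7 members with the palindrome are shown because they share the site while their read ratios differ. Each sequence is given 5′ to 3′ on the strand of its gene, with the palindrome in capitals.
*Mcoln1*, chr8:3500463-3500490, plus strand: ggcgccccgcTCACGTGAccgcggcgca
*Gla*, chrX:134601183-134601243, minus strand: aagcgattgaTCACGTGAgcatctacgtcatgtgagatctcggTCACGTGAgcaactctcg
*Ctsd*, chr7:142387909-142387936, minus strand: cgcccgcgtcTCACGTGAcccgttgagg
*Ctsa*, chr2:164833750-164833772, plus strand: gagcaaactgTCACGTGAtgcag
*Atp6v0d1*, chr8:105566061-105566078, minus strand: cctactgcggTCACGTGA
*Atp6v1a*, chr16:44139374-44139401, minus strand: tttttttaaaTCACGTGAtaggcttaac
*Atg3*, chr16:45158747-45158774, plus strand: gagagtcgagTCACGTGAggccttaggt

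The lines above run from the highest log2 ratio to the lowest. *Mcoln1* stood at 1.10 and *Gla*, the only member with 2 copies of the palindrome in its window, at 1.07. *Ctsd* stood at 0.82, *Ctsa* at 0.62, *Atp6v0d1* at 0.44 and *Atp6v1a* at 0.01. *Atg3* stood at -0.67, so the palindrome was present both in members above and in a member below a ratio of 1. The median log2 ratio of the 7 was 0.62, and that of the 37 other members past the minimum with a promoter was 0.11. The counting interval lay above 1 for 5 of the 7 and for 17 of the 37, beside 36.7% of all genes past the minimum. At 2-fold, 2 of the 7 and 4 of the 37 were higher, beside 14.2% of all genes. At the same limit 0 of the 7 and 2 of the 37 were lower, beside 12.3%. The palindrome started 46 bases before the start given in the RefSeq table in *Mcoln1*, 99 in *Ctsd*, 72 in *Atg3* and 132 in *Atp6v1a*. It lay close to the start in *Ctsa* (13 bases before) and overlapped it in *Atp6v0d1* (4 bases before). The 6 members with the core CACGTG alone were *Atg14*, *Atg5*, *Atg7*, *Ctsl*, *Glb1* and *Lamp1*, whose log2 ratios ran from -0.79 to 1.47. No promoter of *Tfeb* itself in the table held either form.

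Of the 6 lysosomal membrane proteins, 2 rose, 5 had a counting interval above 1 and *Lamp1* alone had an interval below 1. Over all genes past the minimum, 14.2% rose and 12.3% fell at least 2-fold. The interval lay above 1 for 36.7% of all genes and below 1 for 38.1%. The counts in this and each later group of members are to be read against these shares. *Cd63* (chr10:128900989-128912822, plus strand), a tetraspanin of late endosomes, lysosomes and secretory granules, had 102 control reads and 224 RV-Cre reads. Its ratio was 2.48 (95% interval 1.95 to 3.16). *Mcoln1* (chr8:3500457-3515232, plus strand), the lysosomal calcium channel TRPML1, had 61 and 117 reads, a ratio of 2.16 (1.58 to 3.00). The major membrane glycoproteins LAMP-1 and LAMP-2 coat the inner face of the lysosomal membrane, and their genes differed in direction. *Lamp2* had 795 and 1092 reads, a ratio of 1.55 (1.41 to 1.70), whereas *Lamp1* had 2357 and 1934 reads, a ratio of 0.926 (0.871 to 0.984) whose direction turned under *Gapdh* scaling and quantile normalization. *Lamp1* took 57.1% of the reads of these 6 genes in control and 44.9% in RV-Cre. *Scarb2*, the receptor that carries glucocerebrosidase to the lysosome, had 375 and 445 reads, a ratio of 1.34 (1.16 to 1.54). *Npc1*, the membrane protein that passes cholesterol out of the lysosome, had 440 and 495 reads, a ratio of 1.27 (1.11 to 1.45).

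The cathepsins, the proteases of the lysosome, changed in both directions, and their summed reads differed by less than most of the single genes, with 8624 control reads and 8573 RV-Cre reads (ratio 1.12, 1.09 to 1.16). *Ctss* (chr3:95526786-95556403, plus strand) rose from 684 reads to 1392, a ratio of 2.30 (2.09 to 2.52). Cathepsin S is the cysteine protease that trims the invariant chain during class II antigen presentation. The 4 class II genes fixed as markers of antigen-presenting cells also had higher intervals, with 1019 control reads and 1835 RV-Cre reads, and the invariant chain gene *Cd74* had 244 and 583. Their part in the *Ctss* value was not tested. *Ctsc* (chr7:88278085-88310888, plus strand) fell from 2015 reads to 871, a ratio of 0.488 (0.450 to 0.528) that came under 2-fold without *Rn45s* and with quantile or *Gapdh* scaling. Cathepsin C is the dipeptidyl peptidase that activates the serine proteases of cytotoxic granules. Of the reads of these 2 genes, *Ctss* held 25.3% in control and 61.5% in RV-Cre.

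*Ctsd* (chr7:142375911-142388038, minus strand), the aspartic protease cathepsin D, had 1342 and 2106 reads, a ratio of 1.77 (1.65 to 1.90). *Ctsa*, the serine carboxypeptidase that also protects neuraminidase 1 and beta-galactosidase, had 886 and 1208 reads, a ratio of 1.54 (1.41 to 1.68). Its exons share sequence on the other strand with *Pltp*, which had 738 and 1068 reads, and with *Neurl2*, which had 42 and 3. The counting was not stated to use strand, so reads of such overlapping genes cannot be told apart. *Ctsb*, a cysteine protease and peptidase, had 1930 and 1344 reads, a ratio of 0.786 (0.732 to 0.843) whose direction turned under *Gapdh* scaling. *Ctsb* shares 774 exon bases on the other strand with *Fdft1*, which had 643 and 398 reads. *Ctsl*, another cysteine protease, had 65 and 33 reads, a ratio of 0.573 (0.365 to 0.884). *Ctsz*, a carboxypeptidase, was close to equal with 1702 and 1619 reads and a ratio of 1.07 (1.00 to 1.15). As a share of all cathepsin reads, *Ctsc* went from 23.4% to 10.2% and *Ctsb* from 22.4% to 15.7%. Over the same reads, *Ctss* went from 7.93% to 16.2% and *Ctsd* from 15.6% to 24.6%.

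**Figure D2:**
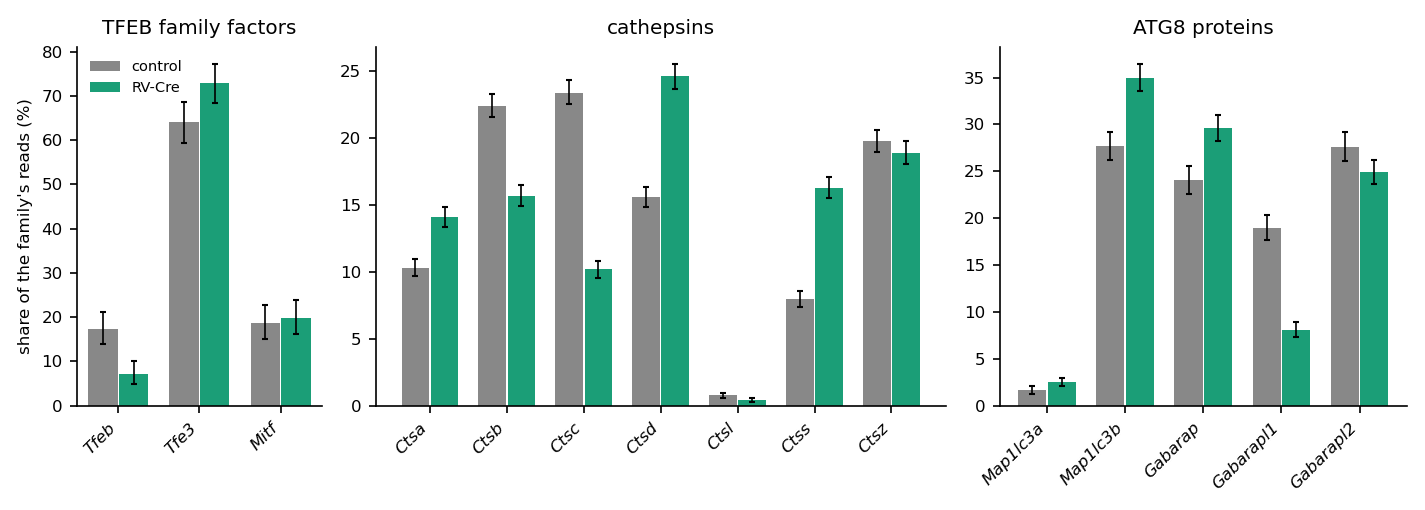
Bars give each gene's share of its family's reads in percent, grey for the control and green for the RV-Cre library, for the TFEB family factors, the cathepsins and the ATG8 proteins, with exact 95% binomial intervals that cover counting error only. Shares need no scaling between libraries, and those of *Tfeb*, *Ctsc*, *Ctsb* and *Gabarapl1* are smaller in the RV-Cre library while those of *Ctsd*, *Ctss*, *Map1lc3b* and *Gabarap* are larger.

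Among the glycosidases, the acid lipase and the lipid-binding proteins, 1 of 8 rose, 3 intervals lay above 1 and 3 below. *Gla* (chrX:134588149-134601125, minus strand), the alpha-galactosidase missing in Fabry disease, had 56 and 105 reads, a ratio of 2.12 (1.52 to 2.98). *Npc2*, the soluble protein that hands cholesterol to NPC1, had 5120 and 8860 reads, and its ratio of 1.95 (1.89 to 2.02) was just under the 2-fold limit. *Lipa*, the acid lipase that frees cholesterol and fatty acids, had 330 and 510 reads, a ratio of 1.74 (1.52 to 2.01). *Gusb*, which encodes beta-glucuronidase, had 452 and 297 reads, a ratio of 0.741 (0.638 to 0.860). *Neu1*, which encodes the sialidase of the lysosome, had 767 and 558 reads, a ratio of 0.821 (0.735 to 0.917) that also turned under *Gapdh* scaling.

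The intervals of *Hexa* and *Glb1* held a ratio of 1. *Hexa*, the alpha subunit of beta-hexosaminidase, had 138 and 108 reads (0.680 to 1.14). *Glb1*, the lysosomal beta-galactosidase, had 222 and 235 reads (0.990 to 1.44) and shares exon sequence with *Tmppe* on the same strand. *Psap*, the precursor of the saposins that help enzymes reach lipids, had 2093 and 1731 reads, a ratio of 0.933 (0.875 to 0.995) whose direction turned under *Gapdh* scaling and quantile normalization. The protein products of *Ctsa*, *Neu1* and *Glb1* form a complex, and their log2 ratios were 0.62, -0.28 and 0.26. The summed reads of the 8 genes, 9178 and 12404, gave a ratio of 1.53 (1.48 to 1.57), and *Npc2* supplied 55.8% and 71.4% of them.

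None of the 7 V-ATPase genes changed at least 2-fold, and their median log2 ratio was 0.06. *Atp6ap1*, an accessory subunit needed for assembly, had the highest ratio of the group, 1.86 (1.73 to 2.01), with 1106 and 1826 reads. It took 11.9% of the V-ATPase reads in control and 19.9% in RV-Cre. *Atp6v0d1*, a subunit of the membrane sector V0, had 360 and 434 reads, a ratio of 1.36 (1.18 to 1.57). *Atp6v0c*, the subunit that forms the proton-carrying ring of V0, had 3201 and 3053 reads, a ratio of 1.08 (1.02 to 1.13). The other 3 subunit genes among the members belong to the V1 sector, which splits ATP in the cytosol. *Atp6v1a*, the catalytic subunit, had 1604 and 1434 reads and a ratio of 1.01 (0.939 to 1.08). *Atp6v1b2*, the other subunit of the ATP-splitting head, had 1410 and 1088 reads, a ratio of 0.871 (0.804 to 0.943) whose direction turned under *Gapdh* scaling. *Atp6v1h*, a regulatory subunit that joins the sectors, had 498 and 298 reads and the lowest ratio of the group, 0.675 (0.583 to 0.781). *Atp6ap2*, the accessory subunit also known as the prorenin receptor, had 1125 and 1040 reads and an interval of 0.958 to 1.14. Summed, the group had 9304 control reads and 9173 RV-Cre reads, a ratio of 1.11 (1.08 to 1.15).

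**Figure D3:**
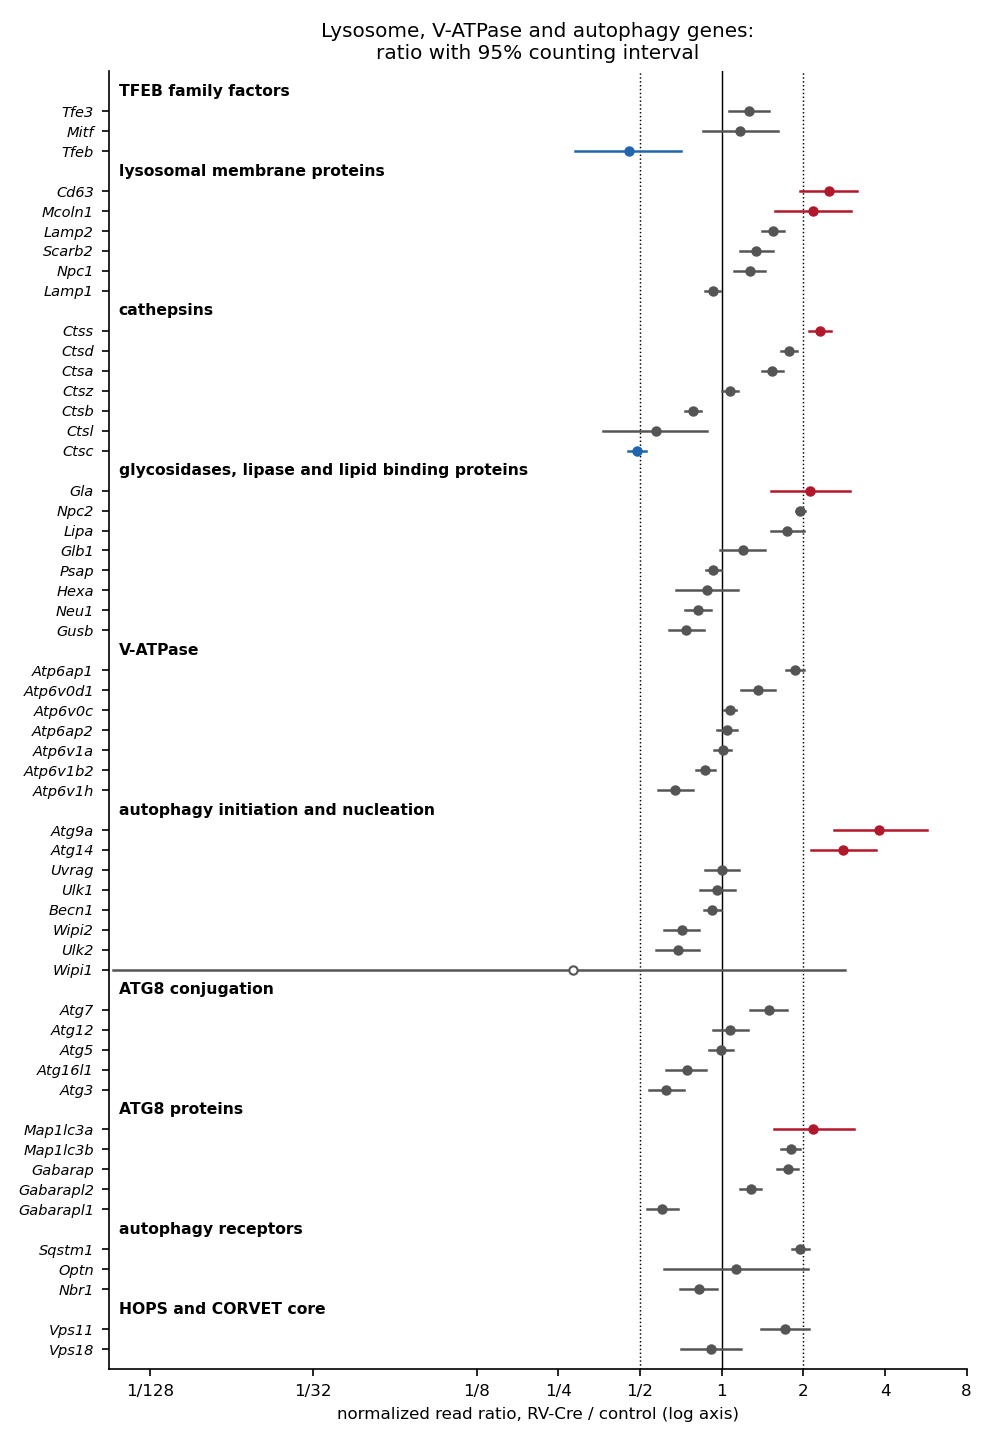
Points give the ratio of normalized reads, RV-Cre over control, for each of the 54 members on a log axis, and bars give the exact 95% counting interval. Members are grouped by role, the dotted lines mark 2-fold, red and blue mark the 7 higher and 2 lower genes, and the open point is *Wipi1*, which is under the minimum. Every V-ATPase point lies between the dotted lines, and *Atg9a* and *Atg14* lie farthest to the right.

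The widest differences of the module were in the initiation and nucleation of autophagosomes, where 2 genes rose while the rest were level or lower. *Atg9a* (chr1:75180860-75192196, minus strand), the membrane protein whose vesicles seed the autophagosome, had 35 control reads and 118 RV-Cre reads. Its ratio of 3.80 (2.59 to 5.72) was the highest of all 54 members. *Atg9a* shares 37 exon bases on the other strand with *Ankzf1*, which had 224 and 280 reads. *Atg14* (chr14:47540893-47570649, minus strand), which directs the Beclin 1 lipid kinase complex to the site of autophagosome formation, had 75 and 186 reads, a ratio of 2.80 (2.13 to 3.71). Other members that act in Beclin 1 complexes were level or slightly lower. *Becn1*, the scaffold of the complex, had 1660 and 1358 reads, a ratio of 0.923 (0.859 to 0.992) whose direction turned under *Gapdh* scaling, and it shares 1394 exon bases with *Cntd1* on the other strand. *Uvrag*, which replaces ATG14 in a second Beclin 1 complex, had 407 and 363 reads, a ratio of 1.01 (0.871 to 1.16).

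Neither of the kinases that start autophagy had an interval above 1. *Ulk1* had 394 and 336 reads, a ratio of 0.962 (0.830 to 1.12) whose direction turned without *Rn45s* and with quantile or *Gapdh* scaling. *Ulk2*, its close relative, had 310 and 189 reads, a ratio of 0.688 (0.571 to 0.827). The WIPI proteins read the lipid made by the Beclin 1 complex. *Wipi2* had 474 and 299 reads, a ratio of 0.712 (0.614 to 0.824). *Wipi1* had 4 and 1 reads, too few for its direction to be read (interval 0.00573 to 2.85).

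None of the 5 genes of the ATG8 conjugation machinery changed at least 2-fold, and their summed reads of 2338 and 1974 gave a ratio of 0.953 (0.897 to 1.01). The machinery links ATG8 proteins to a membrane lipid. *Atg7*, the activating enzyme at its start, had 293 and 387 reads, a ratio of 1.49 (1.28 to 1.74). *Atg3* (chr16:45158785-45188538, plus strand), the conjugating enzyme that acts next, had 510 and 283 reads, a ratio of 0.626 (0.540 to 0.726). The enzymes of these consecutive steps thus lay on opposite sides of a ratio of 1. ATG12, ATG5 and ATG16L1 form the complex that completes the step. *Atg5* had 813 and 719 reads and a ratio of 0.998 (0.901 to 1.10). *Atg12*, whose product is bound to ATG5, had 371 and 354 reads and a ratio of 1.08 (0.928 to 1.25). *Atg16l1*, which places the complex on the membrane, had 351 and 231 reads, a ratio of 0.743 (0.626 to 0.879).

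For the ATG8 proteins, 4 of 5 genes had intervals above 1, and *Gabarapl1* had an interval below 1. *Map1lc3a* (chr2:155276297-155278073, plus strand) rose from 55 reads to 106, a ratio of 2.17 (1.56 to 3.07). *Map1lc3b*, which encodes the LC3B protein used as the standard marker of autophagosomes, had 939 and 1496 reads, a ratio of 1.80 (1.66 to 1.95). *Gabarap*, of the subfamily that acts late in autophagosome maturation, had 815 and 1265 reads, a ratio of 1.75 (1.60 to 1.92). *Gabarapl2* had 937 and 1064 reads, a ratio of 1.28 (1.17 to 1.40). *Gabarapl1* went the other way, with 644 and 345 reads and a ratio of 0.605 (0.529 to 0.690). Its share of the reads of the family was 19.0% in the control library (17.7 to 20.4%) and 8.07% in the RV-Cre library (7.27 to 8.93%). *Map1lc3b* held 27.7% and 35.0% of them. Summed, the ATG8 genes had 3390 and 4276 reads, a ratio of 1.42 (1.36 to 1.49). *Map1lc3b* shares 58 exon bases on the other strand with *Zcchc14* (8 and 83 reads), and *Gabarapl1* shares 47 with *1700101I11Rik* (0 and 13 reads).

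Of the autophagy receptors, which tie cargo to ATG8 proteins, *Sqstm1* was higher and *Nbr1* lower, although *Nbr1* turned higher under *Gapdh* scaling. *Sqstm1*, which encodes p62, the receptor for ubiquitin-tagged cargo that is itself consumed by autophagy, had 1280 and 2213 reads, a ratio of 1.95 (1.82 to 2.09). *Nbr1*, a receptor of similar build, had 378 and 276 reads, a ratio of 0.824 (0.703 to 0.965). *Optn*, a receptor for damaged mitochondria and bacteria, had 24 reads in each library and an interval of 0.614 to 2.08. *Vps11* and *Vps18* encode core subunits shared by the HOPS and CORVET complexes, which tether membranes before they fuse with the lysosome or the endosome. *Vps11* had 162 and 246 reads, a ratio of 1.71 (1.40 to 2.10). *Vps18* had 143 and 116 reads, a ratio of 0.915 (0.710 to 1.18).

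Split by compartment, 4 of the 21 lysosomal hydrolases and membrane proteins were higher and 1 lower at 2-fold, and their median log2 ratio was 0.34. The shares over all genes were 14.2% higher and 12.3% lower. The 20 autophagy genes past the minimum, receptors included, had a median of 0.06, with 3 higher and 0 lower. These are descriptions of the libraries, and no test of a list was made. The reads measure mRNA, and neither protein amounts nor the flow of cargo through autophagy.

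A wider list of 131 genes of the same pathways, of which 130 were found by symbol and 120 passed the minimum, gave 11 genes at least 2-fold higher, 10 lower and a median log2 ratio of 0.20. Over all genes past the minimum, 14.2% were called higher and 12.3% lower, and the counts of each list named next are to be read against these shares. Among 30 further lysosomal hydrolases, 4 rose and 3 fell, and their median was 0.35. *Ctso*, another cysteine cathepsin, rose from 11 reads to 46 and *Naglu*, which cleaves heparan sulfate, from 114 to 308. *Dnase2a*, the acid DNase, fell from 84 reads to 33 and *Hyal2*, a hyaluronidase, from 193 to 78. Of the intervals of the 12 other V-ATPase subunits past the minimum, 8 lay above 1, beside 36.7% over all genes. As among the V-ATPase members, these subunits held no gene at least 2-fold higher, and their median was 0.11. The only call among them was *Atp6v1c2*, with 16 and 5 reads and an interval of 0.101 to 1.01, and it shares exon sequence with *Pdia6* (6433 and 2467 reads). *Atp6v1g2* (20 and 35 reads) and *Tcirg1* (220 and 322) had the highest log2 ratios there, 0.95 and 0.72, and *Atp6v0a1* was at -0.23. The 23 other membrane and sorting proteins had a median of 0.12. *Laptm5*, a lysosomal membrane protein of blood cells that limits T cell receptor levels, rose from 3474 reads to 6291. *M6pr*, a mannose 6-phosphate receptor that delivers hydrolases, fell from 1911 to 811, a call lost without *Rn45s* (log2 ratio -0.97) and with quantile or *Gapdh* scaling. *Slc38a9*, the arginine sensor of the lysosome (203 and 360 reads), stood just under the 2-fold limit, and *Gnptab*, which makes the mannose 6-phosphate tag, was at -0.73.

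Of 31 further autophagy genes, 4 rose and 1 fell, with a median of 0.18. *Calcoco1*, an autophagy receptor of the endoplasmic reticulum and Golgi, rose from 183 reads to 773, a ratio of 4.77 (4.05 to 5.63). *Tecpr1*, which helps autophagosomes fuse with lysosomes, rose from 300 to 1093, a ratio of 4.11 (3.62 to 4.69). *Tollip*, an adaptor that binds ubiquitin and LC3, fell from 418 to 137, a ratio of 0.370 (0.303 to 0.450). *Atg2b*, a lipid transfer protein, was at -0.68. *Atg2a*, its paralog, which partners with ATG9A, was chosen after its values were seen and rose from 257 reads to 554. Beside *Vps11*, the HOPS subunit gene *Vps41* rose from 427 reads to 804, and *Vps39* had 314 and 415. The CORVET subunit genes *Tgfbrap1* and *Vps8* were at -0.49 and -0.14.

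Genes of lysosomal nutrient signalling, through which mTORC1 holds TFEB in the cytoplasm, had 4 genes that fell and 1 that rose among 18, beside 12.3% and 14.2% over all genes, with a median log2 ratio of -0.14. *Fnip2*, a partner of folliculin, fell from 113 reads to 29, a ratio of 0.290 (0.186 to 0.439). *Lamtor3*, a subunit of the Ragulator scaffold, fell from 394 to 140, a ratio of 0.401 (0.328 to 0.487). *Rraga* (1706 and 632 reads), a Rag GTPase, and *Flcn* (292 and 124), folliculin itself, were named after their values were seen. *Tsc2*, an inhibitor of mTORC1 signalling, rose from 416 to 741 reads at a ratio of 2.01 (1.78 to 2.27) that came just under 2-fold with library totals and DESeq2 size factors, and *Lamtor4* had 439 and 723 reads. *Tsc2* shares 693 exon bases on the other strand with *Pkd1*, which had 270 and 546 reads.

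**Figure D4:**
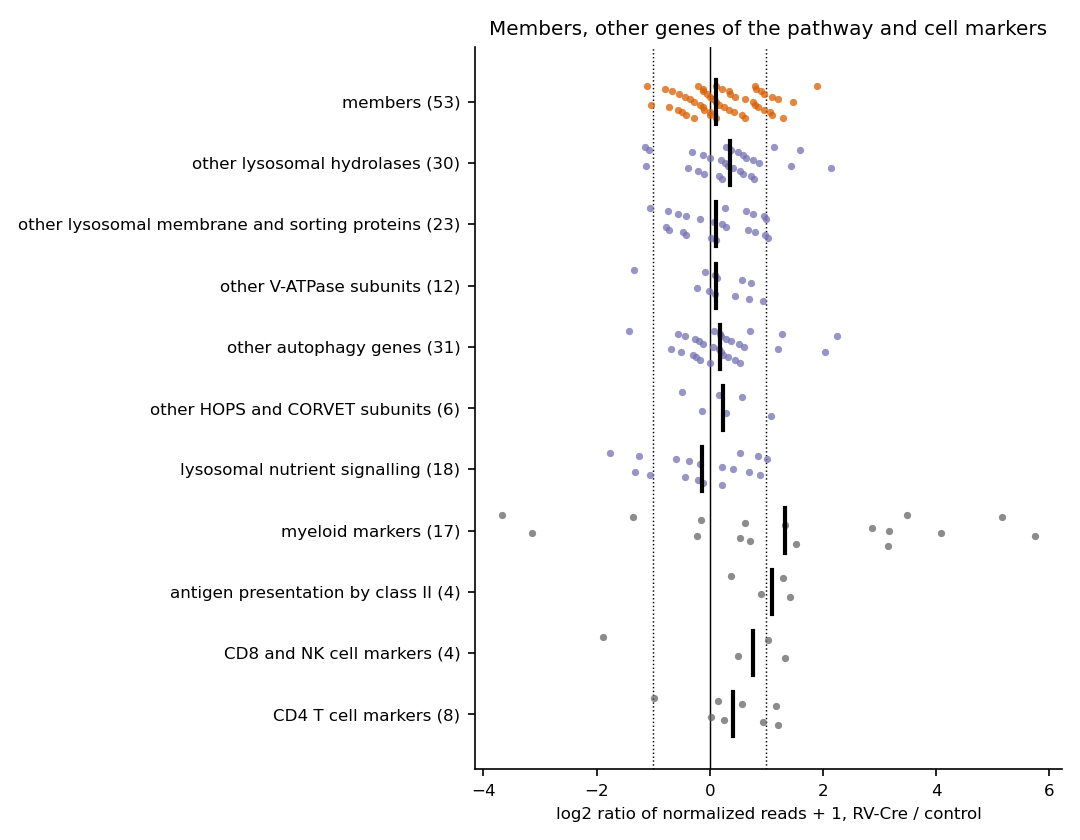
Each point is a gene past the minimum, placed by its log2 ratio of normalized reads + 1, RV-Cre over control, with the number of genes in brackets and a black bar at the median of each list. Members are orange, other genes of the pathways purple and cell markers grey, and dotted lines mark 2-fold. The 4 B cell markers past the minimum, with a median of 1.76, are not drawn. The members have a median of 0.11 and run from -1.10 to 1.90, whereas the 17 myeloid markers run from -3.68 to 5.75.

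Markers of further cell types also differed between the libraries, in both directions, and their part in these results was not tested. Among B cell markers, *Pax5* was at 0 in both libraries, *Cd79a* had 6 control reads and 30 RV-Cre reads, and *Cd79b* had 18 and 11. The 6 CD8 and NK cell markers had 1188 and 1534 reads, with *Cd8b1* at 122 and 274, *Cd8a* at 322 and 580, and *Klrd1* at 240 and 57. Among the CD4 T cell markers, *Cd3d* (3662 and 7475 reads) and *Cd3e* (1453 and 2884) rose, *Cd4* had 1489 and 1342, and *Cd5* had 3800 and 1696.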

How the data were processed

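RNA-seq libraries of control and RV-Cre-transduced Th17 cells, 1 each, had been prepared by the authors from 500 ng of total RNA with a kit that the labels call Quant-Seq. The authors deposited raw read counts per gene symbol with no normalization. The submitters' processing notes name bcl2fastq 2.20.0.422, Bowtie2, bedtools and the build mm10. The annotation, read filters and strand setting are not given in the sources used here. TMM scaling (edgeR 4.0.16 under R 4.3.3) gave size factors of 1.06 for control and 0.941 for RV-Cre. Ratios were taken on the log2 scale with a pseudocount of 1, for genes whose log2 value reached 4 in either library. Intervals are exact Clopper-Pearson 95% intervals (scipy 1.17.1). Intervals cover counting error only and take each read as independent. Reads carry no molecular identifiers, so copies of the same molecule cannot be told apart and the intervals may be too narrow. With 1 library per condition no model was fitted across genes. The 79 rows that share a symbol with another row hold no listed gene. Positions and exon overlaps come from GRCm38 annotation, and promoters from the RefSeq table of GRCm38.p6. The steps were tested on simulated counts. The members and lists were chosen with earlier results of these data known. Named genes are *Ptk2*, all members, and the 2 with the largest change in each direction in each other list; further names are marked in the text. Some results are not reported here. Alternatives were other scalings (library total, with and without *Rn45s*, DESeq2 1.42.0, median centring, quantile, *Gapdh*), pseudocounts of 0.1 and 10, other minimums, fold thresholds of 1.5 and 3 and a 99% interval.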

Additional observations from a re-analysis of the deposited data

How the results depend on the processing

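No paired analysis was possible because there was 1 library of each kind. The counts of 7 members higher and 2 lower were the same with scaling by library total, DESeq2 size factors and median centring, with a pseudocount of 0.1, with a log2 minimum of 6 or of 4 in both libraries, and with a 99% interval. Without *Rn45s* in the library total there were 9 higher and 1 lower, and with quantile normalization 10 and 1. Scaling to *Gapdh*, whose own log2 ratio was -0.42, gave 17 higher, 0 lower and a median of 0.52, and it moved the median of all genes by 0.44. This scaling rests on 1 gene that took 0.00693% of the control reads and 0.00515% of the RV-Cre reads. A pseudocount of 10 gave 4 higher and 1 lower. The calls it lost were *Mcoln1*, *Gla*, *Map1lc3a* and *Tfeb*. A fold threshold of 1.5 gave 17 and 5, and a threshold of 3 gave 1 and 0. Without a minimum, *Wipi1* joined the lower genes, making 3. Without the 10 members that share exon sequence with another gene, an alternative chosen after seeing the data, 6 of 43 were higher and 2 lower, with a median of 0.17. The members' median exceeded that of all genes by 0.077 to 0.18 under every setting run. Scaling by 1 factor per library shifts both medians nearly alike, so those settings could not test this difference. *Gapdh* scaling turned the sign of 11 members with small differences (*Lamp1*, *Ctsb*, *Hexa*, *Neu1*, *Psap*, *Atp6v1b2*, *Ulk1*, *Becn1*, *Atg5*, *Nbr1* and *Vps18*). Quantile normalization turned *Lamp1*, *Psap*, *Ulk1*, *Atg5* and *Optn*. Genes with few reads, such as *Atg9a*, *Mcoln1*, *Tfeb*, *Ctsl* and *Optn*, have the widest intervals, and neither the spread between cultures nor an effect of Cre with intact *Fak* was measured.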
